A study of Mus musculus with 20 samples.

Results

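The genes described here are 45 enzymes and regulators of the glutathione, peroxiredoxin and antioxidant systems, taken as a list of symbols and kept where the gene was in the deposited expression table. All 45 were present, among 14776 genes. They comprise 2 alpha-class, 6 mu-class and 6 other cytosolic glutathione S-transferases, 4 mitochondrial or microsomal ones, 5 glutathione peroxidases, 7 peroxiredoxins and sulfiredoxin, 4 thioredoxins and thioredoxin reductases, 4 superoxide dismutases and catalase, 4 enzymes of glutathione synthesis and reduction, and Nfe2l2, Keap1 and Nqo1. They were measured by RNA-seq in the epididymal fat pad (epididymal white adipose tissue, eWAT) from 20 mice, males of the C57BL/6J strain that were 6 weeks old when the experiment began. The 6 NC mice ate normal chow. The 7 HFD mice ate a high-fat diet for 14 weeks and then received saline by gavage for another 6 weeks on the same diet. The 7 SZ-A mice had the same diet and received SZ-A, the alkaloid fraction of mulberry twig (Ramulus Mori, Sangzhi), in place of saline. All mice were fasted overnight before they were killed. Each library is treated as 1 mouse, and replicate numbers are those of the labels. HFD against NC asks what the diet changed, and SZ-A against HFD asks what the alkaloids changed in mice kept on that diet. Both comparisons use the same 7 HFD mice, so an unusual HFD mouse moves both at once, in opposite directions.

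Cells remove hydrogen peroxide and lipid peroxides with glutathione peroxidases, which spend glutathione, and with peroxiredoxins, which are recharged by thioredoxin. Glutathione S-transferases couple glutathione to reactive lipid aldehydes and other electrophiles. Many of these enzymes are induced by NRF2, the transcription factor encoded by Nfe2l2, which KEAP1 marks for degradation until oxidants or electrophiles modify KEAP1. In adipose tissue, Gpx3 is a secreted peroxidase made by adipocytes, and Gsta4 detoxifies the lipid aldehyde 4-hydroxynonenal.

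Recovered reads on the deposited genes numbered 13567667 to 19388628 per mouse, and no member had fewer than 12 reads in any mouse. Levels are in FPKM, reads scaled to transcript length and to the reads of the library. NC replicate 6 stood apart. Its 20 adipocyte markers summed to 701 FPKM against 12154 to 29135 in the other NC mice, with Adipoq at 26.6 FPKM. Of the 22 listed epithelial markers 7 were in the table, and their level in pure fat was not measured here. They summed to 900 FPKM in NC replicate 6, 888 in NC replicate 1 and 342 in NC replicate 2, to 13.8 to 137 in the remaining NC mice, to 4.58 to 8.30 in HFD, and to 6.69 to 61.0 in SZ-A except SZ-A replicates 2 and 7 at 314 and 358. Of the 37 epididymis markers 1 was in the table, Adgrg2, at 5.69 to 420.4 FPKM in NC mice, 0.789 to 1.75 in HFD mice and 1.80 to 103 in SZ-A mice. The 19 macrophage markers summed to 297 to 1031 FPKM in NC mice, to 2014 to 6696 with SZ-A and to 5059 to 13542 in HFD mice. The 20 adipocyte markers summed to 2871 to 10004 FPKM in HFD mice (median 7205) and to 6610 to 21827 with SZ-A (median 10314). Their NC median was 19007, and each HFD mouse lay below each NC mouse except NC replicate 6. The part of this in the members' differences was not tested. HFD replicates 1 and 5 had the highest macrophage and the lowest adipocyte sums of their group, at 13542 and 10651 FPKM for macrophage and 2871 and 4172 FPKM for adipocyte markers. SZ-A replicate 5 had the highest share of mitochondrial reads, 11.6%, against 1.67% to 8.34% in the other mice. No value in the table is 0. In whole tissue, fewer cells of a type and less RNA per cell cannot be told apart.

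On the diet, transcripts of 12 of the 18 glutathione S-transferases and of Gpx3 and Nqo1 were lower, and those of Nfe2l2 and Prdx4 were higher. In HFD against NC, 19 of the 45 members were lower, 2 were higher and 24 were not called, where a call is a Benjamini-Hochberg adjusted p below 0.05 in limma over all genes tested. Of all 14706 genes tested, 20.1% were called lower and 21.0% higher, 41.1% together. The HFD and NC mice did not overlap for 7 members that were lower, Gsta3, Gsta4, Gstm5, Gstt2, Gstt3, Gstk1 and Prdx3, beside 7.77% of all genes. The members' median log2 fold change was -0.47, and that of all genes was -0.04. Past the study's limit of 1.5 on the log2 scale were 9 members, all lower, beside 7.97% of all genes. With NC replicates 1, 2 and 6 left out, a choice made after seeing the data, 16 members were lower and 3 higher, and 42.7% of all genes were called. With the epithelial marker level as a covariate, 7 were lower and 0 higher, with a median of -0.13, and calls over all genes fell to 21.1% from 41.1%. The 7 were Gsta3, Gsta4, Gstt2, Mgst1 and Prdx3, with Cat and Mgst2, which were not called without the covariate. The epithelial sums of NC and HFD mice did not overlap. Fits of HFD against NC with this covariate, here and below, therefore cannot separate the diet from the epithelial level.

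After SZ-A, 9 members were higher than in HFD mice, 2 were lower and 34 were not called, beside 9.47% of 14695 genes called higher and 13.3% called lower, 22.8% together. No member had all SZ-A mice below all HFD mice, against 4.01% of all genes. The higher ones were Gsta3, Gsta4, Gstm1, Gstm2, Gstm4, Gstm6, Gstt2, Gpx3 and Gpx4. The lower ones were Nfe2l2 and Prdx4. The members' median was 0.45 and that of all genes 0.03. Gstm6 alone passed the limit of 1.5, beside 0.864% of all genes. This count depended on single mice: it was 19 higher without SZ-A replicate 5 and 6 without HFD replicate 5. Without both HFD replicates 1 and 5, again chosen after seeing the data, 1 member was higher, Gsr, and 0 were lower, while calls over all genes dropped to 1414 from 3349. Without SZ-A replicates 2 and 7, 11 members were higher and 1 lower, and 25.9% of all genes were called. With the epithelial covariate Gpx4, Gstm6, Gstt2, Mgst1 and Sod1 were higher and Nfe2l2 lower, and 19.8% of all genes were called. Of the SZ-A mice only replicate 6, at 6.69 FPKM, had an epithelial sum inside the HFD range. Fits of SZ-A against HFD with this covariate, here and below, therefore separate SZ-A poorly from the epithelial level.

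**Figure D1:**
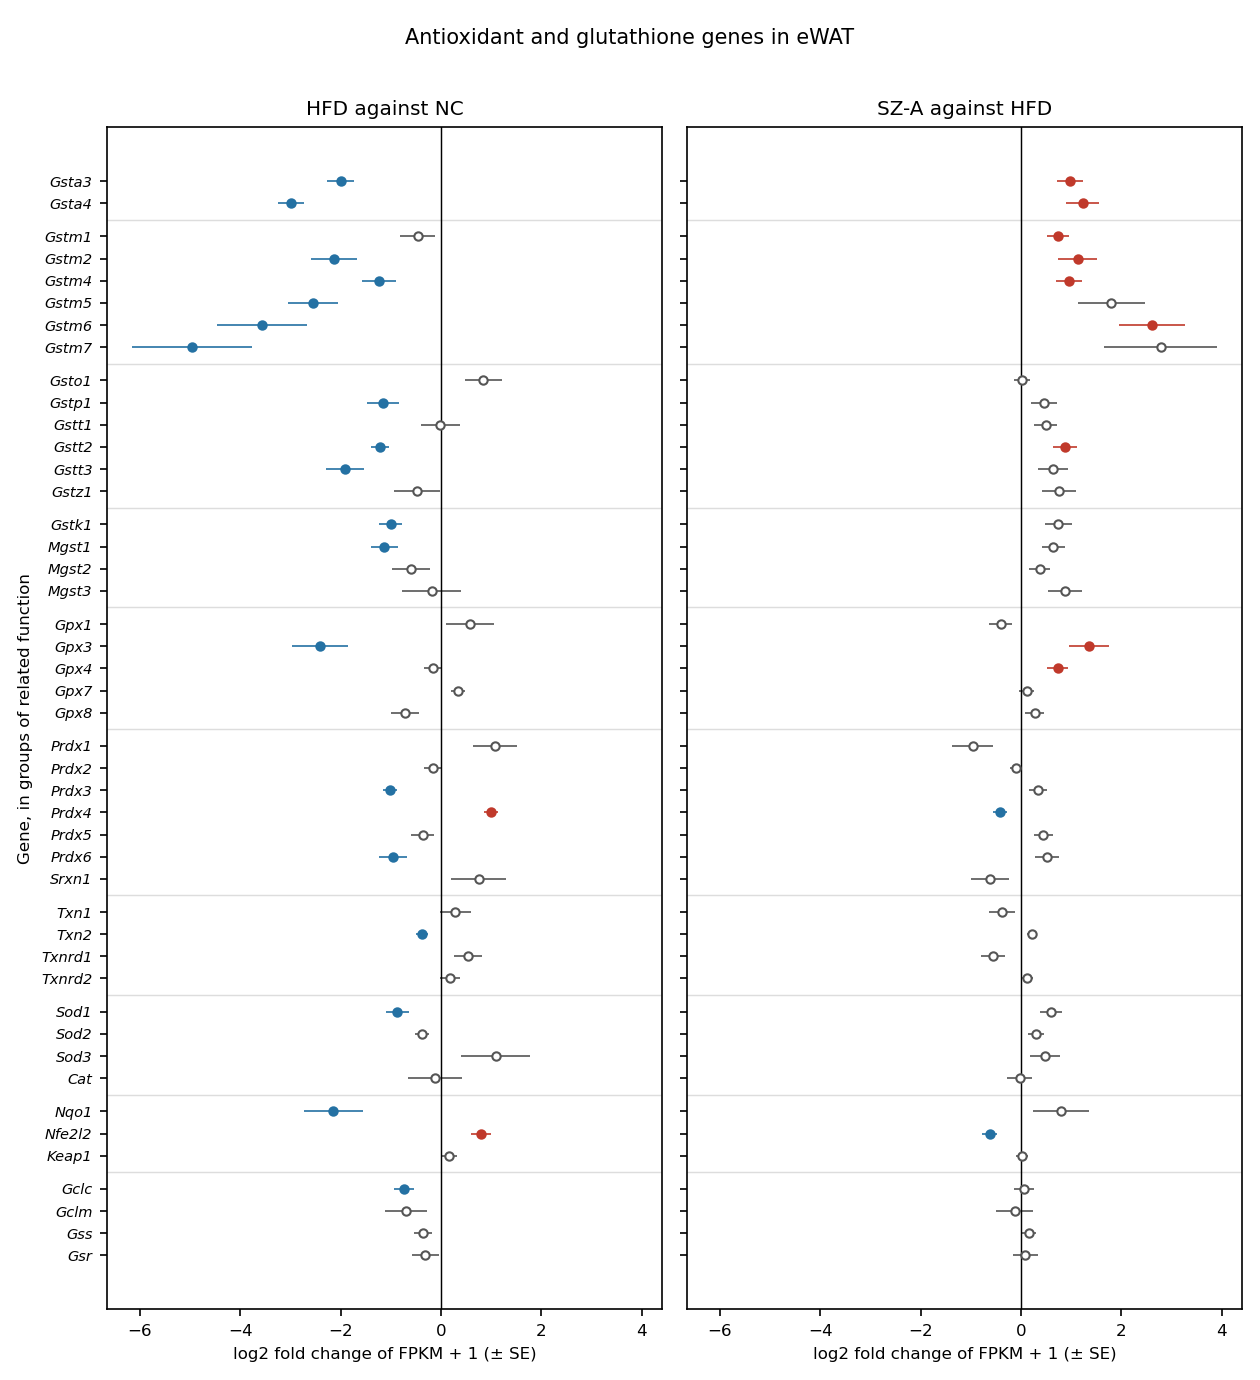
Log2 fold change of each of the 45 members with its standard error in HFD against NC (left) and SZ-A against HFD (right), on 1 shared axis of log2(FPKM + 1). Filled red points are called higher, filled blue points called lower, and open points not called, so that the left panel holds 19 blue and 2 red points, the right panel 9 red and 2 blue.

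The alpha-class transferases Gsta3 and Gsta4 were lower in HFD mice, and higher after SZ-A than without it. Gsta4 lay between 11.9 and 36.4 FPKM in NC (median 32.4), between 1.31 and 4.58 in HFD (median 2.18), and between 2.25 and 16.3 in SZ-A (median 8.48). HFD and NC did not overlap, and SZ-A replicates 5 and 6, at 3.51 and 2.25 FPKM, stayed inside the HFD range. Its log2 fold change was -2.99 ± 0.26 (SE, adjusted p = 1.51e-06) in HFD against NC and 1.23 ± 0.33 (adjusted p = 0.0160) in SZ-A against HFD. Gsta3 ranged over 9.27 to 41.2 FPKM in NC (median 24.9), 3.70 to 6.52 in HFD (median 5.03) and 4.78 to 20.9 in SZ-A (median 12.3). Again no HFD mouse reached the NC range, and SZ-A replicates 5 and 6, at 5.10 and 4.78 FPKM, were the SZ-A mice at HFD levels. Those 2 mice also had the highest macrophage sums of the SZ-A group, 6696 and 5447 FPKM against 2014 to 2646, and the part of this in the result was not tested. Gsta3 changed by -1.998 ± 0.27 (adjusted p = 6.26e-05) with the diet and by 0.97 ± 0.26 (adjusted p = 0.0157) with SZ-A. The diet values were about as large without the 3 NC mice of high epithelial markers, -2.68 (adjusted p = 6.05e-05) for Gsta4 and -1.97 (adjusted p = 8.83e-06) for Gsta3. The SZ-A values without SZ-A replicates 2 and 7 were 0.98 (adjusted p = 0.0442) and 0.88 (adjusted p = 0.0413). Without HFD replicates 1 and 5 the SZ-A call was lost, at 1.07 (adjusted p = 0.0850) for Gsta4 and 0.99 (adjusted p = 0.0590) for Gsta3.

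The 6 mu-class members lie along 1 stretch of chromosome 3 of GRCm38, and whether other genes lie between them was not examined. They run from Gstm5 at chr3:107895821-107898686 on the plus strand through Gstm7 (chr3:107926334-107931817), Gstm6 (chr3:107938847-107943749), Gstm2 (chr3:107981702-107986453) and Gstm1 (chr3:108012255-108017973) to Gstm4 at chr3:108040408-108044894, the last 5 on the minus strand. Of the 100-base windows of its transcript, Gstm1 shared 7.73% with other annotated genes, most with the pseudogene Gstm2-ps1, Gstm6 shared 2.41%, with Gstm3, and Gstm2 shared 0.622%. Gstm4, Gstm5 and Gstm7 shared 0%. Of the exon bases of Gstm5, 13.9% lie opposite those of 4933431E20Rik, and the counting was not stated to use strand.

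On the diet 5 of the 6 mu genes were lower, all but Gstm1, and 4 were higher after SZ-A, all but Gstm5 and Gstm7. Their summed level lay between 372 and 3726 FPKM in NC (median 968), between 309.7 and 478 in HFD (median 370.2), and between 314 and 1943 in SZ-A (median 748). Taken as 1 value the sum was lower in HFD than NC, by a log2 fold change of -1.35 ± 0.45 (adjusted p = 0.0275), and higher in SZ-A than HFD by 1.08 ± 0.33 (adjusted p = 0.0279).

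Gstm7 had the widest spread of any member over all mice on the log2 scale. It lay between 1.79 and 1222 FPKM in NC (median 213), between 1.01 and 2.48 in HFD (median 1.58), and between 1.23 and 465 in SZ-A (median 4.72). NC replicates 3 and 5, at 1.79 and 5.22 FPKM, were at or near HFD levels, and SZ-A replicates 2 and 7, at 386 and 465 FPKM, stood far above the rest of their group. The diet difference was -4.96 ± 1.19 (adjusted p = 0.00485), and the SZ-A difference, 2.78 ± 1.12, was not called (adjusted p = 0.0848). Gstm6 followed with 1.502 to 266 FPKM in NC (median 46.3), 0.488 to 1.95 in HFD (median 1.13) and 3.13 to 118 in SZ-A (median 6.74). It was the member for which each SZ-A mouse lay above each HFD mouse, beside 2.07% of all genes, and its highest SZ-A values were again replicates 7 and 2, at 118 and 52.1 FPKM. Gstm6 differed by -3.57 ± 0.90 (adjusted p = 0.00658) with the diet and by 2.61 ± 0.65 (adjusted p = 0.0111) with SZ-A. Gstm5 lay between 24.1 and 323 FPKM in NC (median 76.1), 8.03 and 13.5 in HFD (median 11.3), and 7.47 and 244 in SZ-A (median 21.7). Its HFD mice did not overlap the NC mice, with a difference of -2.55 ± 0.49 (adjusted p = 0.00108), and the SZ-A difference of 1.80 ± 0.67 was not called (adjusted p = 0.0647). Both uncalled SZ-A differences would be called without SZ-A replicate 5 (2.18, adjusted p = 0.0182 for Gstm5, and 3.21, adjusted p = 0.0467 for Gstm7) or without replicate 6 (2.11, adjusted p = 0.0310, and 3.29, adjusted p = 0.0433). Those mice were the lowest of their group for both genes, so leaving either out raises the differences. The Gstm7 value in SZ-A mice was 2.05 without replicate 2 and 2.002 without replicate 7. For the diet, single NC mice moved the difference of Gstm6 between -2.90 without NC replicate 1 and -4.25 without NC replicate 3, and that of Gstm7 between -4.18 and -5.94 without the same mice.

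Gstm2 lay between 50.6 and 553 FPKM in NC (median 213), between 28.2 and 52.5 in HFD (median 39.4), and between 33.1 and 326 in SZ-A (median 87.7). It was lower on the diet by -2.13 ± 0.46 (adjusted p = 0.00235). Its SZ-A difference of 1.13 ± 0.39 lay on the threshold (adjusted p = 0.04998) and lost its call in 12 of 14 fits that each left out 1 mouse. Gstm4 lay between 13.9 and 85.8 FPKM in NC (median 30.8), between 9.01 and 17.3 in HFD (median 13.2), and between 10.2 and 42.2 in SZ-A (median 32.5). It differed by -1.23 ± 0.33 (adjusted p = 0.00918) and 0.96 ± 0.26 (adjusted p = 0.0153), and kept both calls in each fit that left out 1 mouse. Gstm1 was the most abundant transferase, with 236 to 1276 FPKM in NC (median 369), 251 to 410.2 in HFD (median 307) and 258 to 748 in SZ-A (median 541). Its diet difference, -0.47 ± 0.34, was not called (adjusted p = 0.297), and its SZ-A difference of 0.74 ± 0.23 (adjusted p = 0.0296) was lost in 8 of 14 fits without 1 mouse, at most at an adjusted p of 0.0640, without SZ-A replicate 3.

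Within their groups, Gstm2, Gstm5, Gstm6 and Gstm7 were highest in mice with high epithelial markers, NC replicates 1, 2 and 6 and SZ-A replicates 2 and 7. SZ-A replicate 3, with an epithelial sum of 61.0 FPKM, had Gstm5 at 103 FPKM, above NC replicates 2 and 6 at 99.2 and 102. NC replicates 4 and 5 had about the same epithelial sum, 137 and 128 FPKM, but Gstm7 at 125 and 5.22 FPKM. Without NC replicates 1, 2 and 6 the diet differences were -1.45 (adjusted p = 0.000620) for Gstm5, -2.29 (adjusted p = 0.0475) for Gstm7, -1.08 (adjusted p = 0.00964) for Gstm2, and -0.81 (adjusted p = 0.0250) for Gstm4. Gstm6 was no longer called, at -1.56 (adjusted p = 0.0555). With the epithelial level as a covariate no mu gene was called in HFD against NC, and the values of Gstm6 and Gstm7 turned positive, at 0.85 (adjusted p = 0.529) and 1.08 (adjusted p = 0.4998). Since the epithelial sums of these groups did not overlap, that fit cannot separate the diet from the epithelial level. Without SZ-A replicates 2 and 7 the SZ-A differences were 1.58 (adjusted p = 0.00348) for Gstm6, 0.82 (adjusted p = 0.0416) for Gstm4, 0.87 (adjusted p = 0.181) for Gstm5 and 0.96 (adjusted p = 0.148) for Gstm7. With the epithelial covariate, Gstm6 was the mu gene still called, at 1.12 (adjusted p = 0.00729). That fit too separates SZ-A poorly from the epithelial level.

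**Figure D2:**
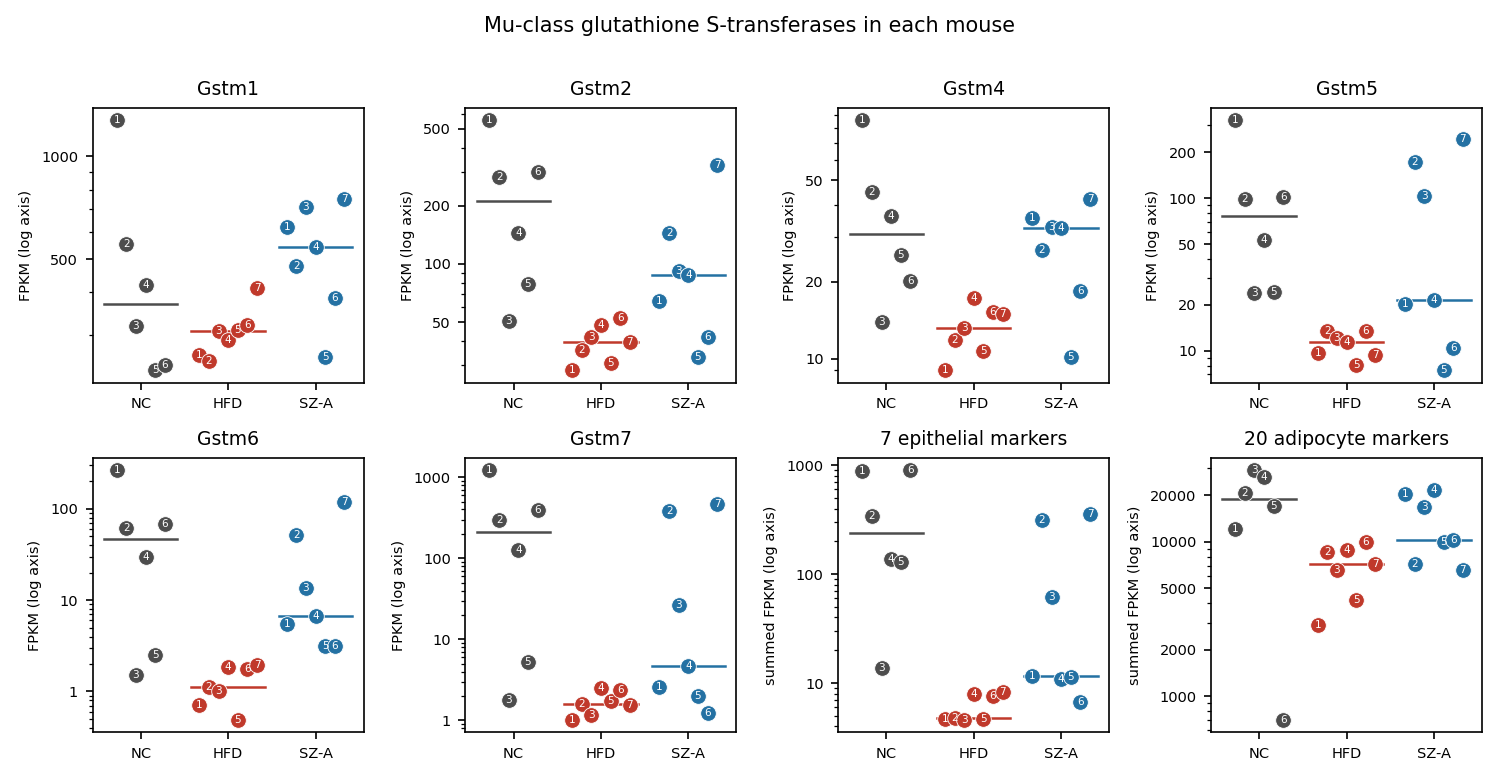
FPKM of the 6 mu-class glutathione S-transferases, and the summed FPKM of 7 epithelial and 20 adipocyte markers, in each mouse of NC, HFD and SZ-A, on log axes, with the replicate number in each point and a bar at the group median. Gstm7 reaches 1222 FPKM in NC replicate 1 and 465 in SZ-A replicate 7, the mice in which the epithelial sum is 888 and 358, while each HFD mouse lies between 1.01 and 2.48.

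Of the other cytosolic transferases Gsto1, Gstp1, Gstt1, Gstt2, Gstt3 and Gstz1, 3 were lower on the diet and 1 was higher after SZ-A. Gstt2, a theta-class enzyme, ranged over 12.4 to 29.6 FPKM in NC (median 19.8), 5.98 to 9.23 in HFD (median 7.63) and 6.68 to 28.9 in SZ-A (median 15.9). Each HFD mouse lay below each NC mouse, and 1 SZ-A mouse, replicate 2 at 6.68 FPKM, lay inside the HFD range. Gstt2 differed by -1.22 ± 0.18 (adjusted p = 0.000120) with the diet and by 0.87 ± 0.25 (adjusted p = 0.0202) with SZ-A. The mice with high epithelial markers were not the high ones here, and without them the differences were -1.55 (adjusted p = 1.15e-05) and 1.19 (adjusted p = 0.00166). Gstt3 was lower on the diet by -1.91 ± 0.38 (adjusted p = 0.00144), and Gstp1 by -1.15 ± 0.31 (adjusted p = 0.0101), which without the 3 NC mice was -0.65 (adjusted p = 0.0555). Gstt3 was highest in NC replicates 6 and 1, at 38.7 and 18.3 FPKM, and in SZ-A replicates 2 and 7, at 11.5 and 8.51, all mice of high epithelial markers. Its diet difference was -1.20 (adjusted p = 0.000360) without NC replicates 1, 2 and 6 and -0.13 (adjusted p = 0.858) with the epithelial covariate. Both genes are also uncertain because Gstp1 shared 52.8% of its windows, mostly with Gstp2, and Gstt3 shared 23.9%, with the overlapping gene model Gm20441. Gsto1, Gstt1 and Gstz1 were called in neither comparison. Gsto1 and Gstt1 were lowest in NC replicate 6, the mouse with few adipocyte transcripts, at 4.64 and 5.97 FPKM.

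Among the transferases of mitochondria and membranes, Gstk1, of mitochondria and peroxisomes, and Mgst1, a microsomal enzyme, were lower on the diet, and Mgst2 and Mgst3 were not called. Mgst1 lay between 160.0 and 662 FPKM in NC (median 393), between 126 and 213 in HFD (median 161), and between 161 and 457 in SZ-A (median 213). NC replicate 6, at 160.0, was the NC mouse inside the HFD range. Its diet difference was -1.13 ± 0.27 (adjusted p = 0.00507), and that of Gstk1 was -1.01 ± 0.24 (adjusted p = 0.00448), with no overlap between its groups. With the epithelial covariate the Gstk1 value was -0.32 (adjusted p = 0.583). After SZ-A none of the 4 was called, and 3 came near: 0.64 ± 0.23 (adjusted p = 0.0577) for Mgst1, 0.75 ± 0.27 (adjusted p = 0.0568) for Gstk1 and 0.88 ± 0.34 (adjusted p = 0.0781) for Mgst3. Each of these 3 was called without SZ-A replicate 5, at 0.76 (adjusted p = 0.0196), 0.92 (adjusted p = 0.00993) and 1.05 (adjusted p = 0.0269). That mouse was the lowest or next to lowest of its group for each, so leaving it out raises the differences.

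Of the 5 glutathione peroxidases, 1 was lower on the diet, Gpx3, and 2 were higher after SZ-A, Gpx3 and Gpx4. Gpx3 had the highest mean level of all members, 1285 FPKM. It lay between 371 and 8195 FPKM in NC (median 1737), between 227 and 466 in HFD (median 303), and between 407 and 3270.0 in SZ-A (median 582). The NC mouse inside the HFD range was replicate 6, and the highest values were NC replicate 1 and, in SZ-A, replicates 7 and 2 at 3270.0 and 1531 FPKM. Gpx3 differed by -2.41 ± 0.56 (adjusted p = 0.00396) with the diet and 1.35 ± 0.40 (adjusted p = 0.0260) with SZ-A, and the second was lost without HFD replicate 5, at 1.27 (adjusted p = 0.0573). Without the mice of high epithelial markers it was -2.09 (adjusted p = 0.000264) and 0.76 (adjusted p = 0.0214).

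Gpx4, which reduces lipid hydroperoxides within membranes and so holds off ferroptosis, did not differ by test between HFD and NC (adjusted p = 0.484). It lay between 230.0 and 371 FPKM in NC (median 286), between 201 and 315 in HFD (median 267), and between 242 and 694 in SZ-A (median 456). In SZ-A, 6 of 7 mice were above the highest HFD mouse, and replicate 2, at 242, was not. The SZ-A difference was 0.73 ± 0.21 (adjusted p = 0.0224), and 0.93 (adjusted p = 0.00528) without SZ-A replicates 2 and 7. Gpx4 shared 48.4% of its windows, mostly with the pseudogene Gpx4-ps2, so its reads could be split. Gpx1, the cytosolic peroxidase, was at 161 to 1743 FPKM in NC (median 1000.1), 873 to 1979.9 in HFD (median 1085) and 593 to 1129 in SZ-A (median 923). Its groups overlapped in both comparisons, at 0.58 ± 0.48 (adjusted p = 0.346) and -0.41 ± 0.23 (adjusted p = 0.217), and the first turned to -0.23 (adjusted p = 0.541) without the 3 NC mice. Gpx7 and Gpx8, peroxidases of the endoplasmic reticulum, were called in neither, with adjusted p of 0.0617 and 0.0590 for the diet.

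The peroxiredoxins did not move together. On the diet 2 were lower, Prdx3 of mitochondria and Prdx6, 1 was higher, Prdx4 of the endoplasmic reticulum, and Prdx1, Prdx2, Prdx5 and the sulfiredoxin Srxn1 were not called. Prdx3 lay between 85.8 and 143 FPKM in NC (median 115), between 48.9 and 65.2 in HFD (median 52.6), and between 36.0 and 89.4 in SZ-A (median 81.6). Each HFD mouse was below each NC mouse, and in SZ-A 5 of 7 mice were above the HFD range while replicate 5, at 36.0, was below it. The diet difference was -1.02 ± 0.13 (adjusted p = 5.44e-05), and -1.02 (adjusted p = 9.07e-05) without the 3 NC mice, and SZ-A against HFD was not called (adjusted p = 0.187). Prdx4 was the member whose HFD mice all lay above the NC mice, beside 12.7% of all genes, with 7.62 to 13.4 FPKM in NC (median 11.5), 19.6 to 32.5 in HFD (median 22.3) and 11.2 to 20.4 in SZ-A (median 18.6). It was higher on the diet by 0.9998 ± 0.14 (adjusted p = 0.000120). With SZ-A it was lower by a log2 fold change of -0.41 ± 0.14 (adjusted p = 0.0434), lost in 9 of 14 fits without 1 mouse, at most at an adjusted p of 0.0860, without HFD replicate 1. Prdx6 differed by -0.96 ± 0.28 (adjusted p = 0.0141) on the diet, and was not called without the 3 NC mice (-0.44, adjusted p = 0.0700). Prdx5 overlaps Trmt112 on the opposite strand over 19.1% of its exon bases.

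The NRF2 system itself moved in mixed directions. Nfe2l2 lay between 14.9 and 35.8 FPKM in NC (median 27.0), between 33.5 and 61.3 in HFD (median 49.5), and between 25.3 and 40.3 in SZ-A (median 28.3). The HFD and NC ranges overlapped slightly, from 33.5 to 35.8, and 1 SZ-A mouse, replicate 6 at 40.3, lay inside the HFD range. Nfe2l2 was higher on the diet by 0.79 ± 0.20 (adjusted p = 0.00677) and lower after SZ-A, with -0.63 ± 0.15 (adjusted p = 0.00993). Without HFD replicates 1 and 5 these were 0.68 (adjusted p = 0.0358) and -0.51 (adjusted p = 0.0590). With the epithelial covariate the diet value was 0.19 (adjusted p = 0.713). Keap1 lay between 5.89 and 12.1 FPKM in NC (median 10.9), 8.48 and 13.3 in HFD (median 10.6), and 9.43 and 14.6 in SZ-A (median 10.6), and its groups overlapped (adjusted p = 0.465 and 0.934). Nqo1, a quinone reductase widely used as a readout of NRF2 activity, moved the other way from Nfe2l2 on the diet. Its range was 6.61 to 142 FPKM in NC (median 14.2), 2.18 to 9.82 in HFD (median 2.63) and 2.36 to 37.7 in SZ-A (median 4.02). In the NC group replicates 1 and 2 were highest, at 142 and 32.4, in the HFD group replicates 1 and 5, at 9.82 and 6.43, and in the SZ-A group replicates 2 and 7, at 37.7 and 33.4. The diet difference was -2.14 ± 0.59 (adjusted p = 0.0102), -1.19 (adjusted p = 0.0288) without the 3 NC mice, and -0.34 (adjusted p = 0.824) with the epithelial covariate. SZ-A against HFD was 0.79 ± 0.56 and not called (adjusted p = 0.315), and it was -0.08 (adjusted p = 0.854) without SZ-A replicates 2 and 7.

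**Figure D3:**
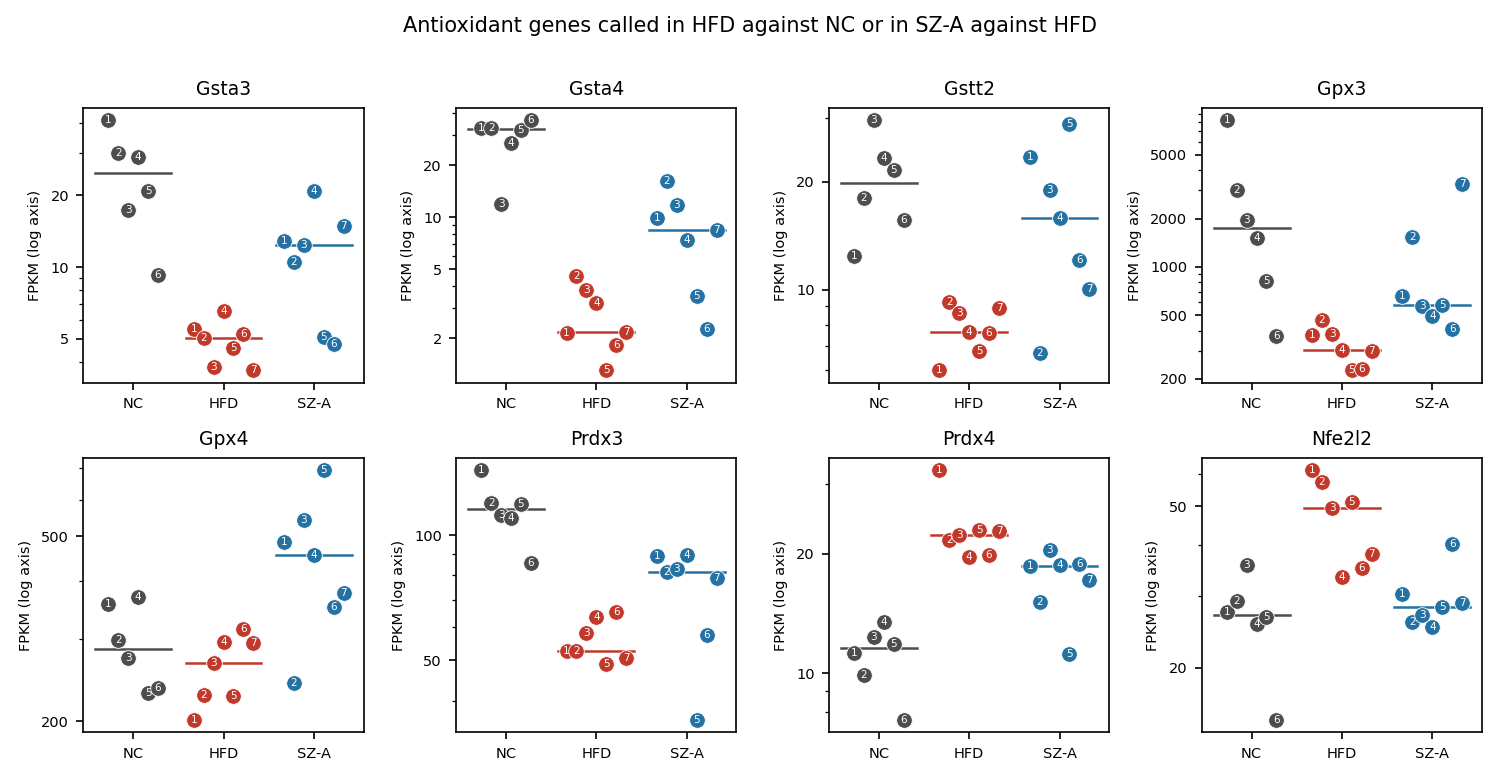
FPKM per mouse of 8 members called in at least 1 of the comparisons, on log axes, with the replicate number in each point and a bar at the group median. HFD mice lie below each NC mouse for Gsta3, Gsta4, Gstt2 and Prdx3 and above each NC mouse for Prdx4, and Gpx4 is highest in SZ-A, up to 694 FPKM.

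Some redox genes were higher in HFD replicates 1 and 5 than in the other HFD mice, and those given here were picked after their values were seen. Prdx1, a cytosolic peroxiredoxin, was at 1278 and 743 FPKM in those 2 mice, at 169.9 to 404 in the other 5, at 128 to 223 in NC (median 153) and at 137 to 229.9 in SZ-A (median 177). Txnrd1, the cytosolic thioredoxin reductase, was at 47.5 and 49.2 FPKM in HFD replicates 1 and 5, against 15.9 to 25.1 in the other HFD mice. HFD replicate 3 held the 404 FPKM of Prdx1 and the 25.1 of Txnrd1, both above each NC and SZ-A mouse. Txn1, the substrate of Txnrd1, was at 460.4 and 335 FPKM in HFD replicates 1 and 5, against 133 to 200.1. Srxn1, which repairs overoxidised peroxiredoxins, was at 112 and 102 FPKM against 20.9 to 46.2, though NC replicate 1 also reached 108. Gsr, which regenerates reduced glutathione, was at 51.2 and 37.5 against 13.8 to 19.3, and Gclm, the modifier subunit of the enzyme that starts glutathione synthesis, at 31.6 and 23.8 against 7.67 to 9.48. For each of the 6 genes, HFD replicates 1 and 5 were the highest of their group, which restates how the genes were picked. Other members were also highest in these mice, among them Gclc, Gss, Gstp1 and Prdx2, and some, such as Gstk1 and Gstz1, were lowest in them. The heme oxygenase Hmox1, an NRF2 target outside the list, was also highest in HFD replicates 1 and 5, at 351 and 280.2 FPKM. As given above, these were the HFD mice with the highest macrophage and lowest adipocyte sums, and the part of that in the result was not tested.

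Between groups, the differences of Prdx1, Txn1, Txnrd1, Srxn1, Gsr and Gclm were not called. Prdx1 was 1.08 ± 0.45 (adjusted p = 0.0681) on the diet and -0.97 ± 0.40 (adjusted p = 0.0920) with SZ-A. Without HFD replicates 1 and 5 the values were 0.47 (adjusted p = 0.171) and -0.36 (adjusted p = 0.290), and without HFD replicate 6 the diet value was called, at 1.24 (adjusted p = 0.0443). SZ-A against HFD was -0.56 ± 0.24 (adjusted p = 0.109) for Txnrd1 and -0.62 ± 0.37 (adjusted p = 0.237) for Srxn1. Without the 2 mice, Gsr turned from an uncalled difference (adjusted p = 0.391 on the diet and 0.8294 with SZ-A) to lower on the diet, with -0.70 (adjusted p = 0.00244), and higher with SZ-A, with 0.48 (adjusted p = 0.0225). Since Gsr was picked for its high values in these mice, leaving them out lowers its HFD level and spread by construction. These p-values are therefore no test of a difference.

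**Figure D4:**
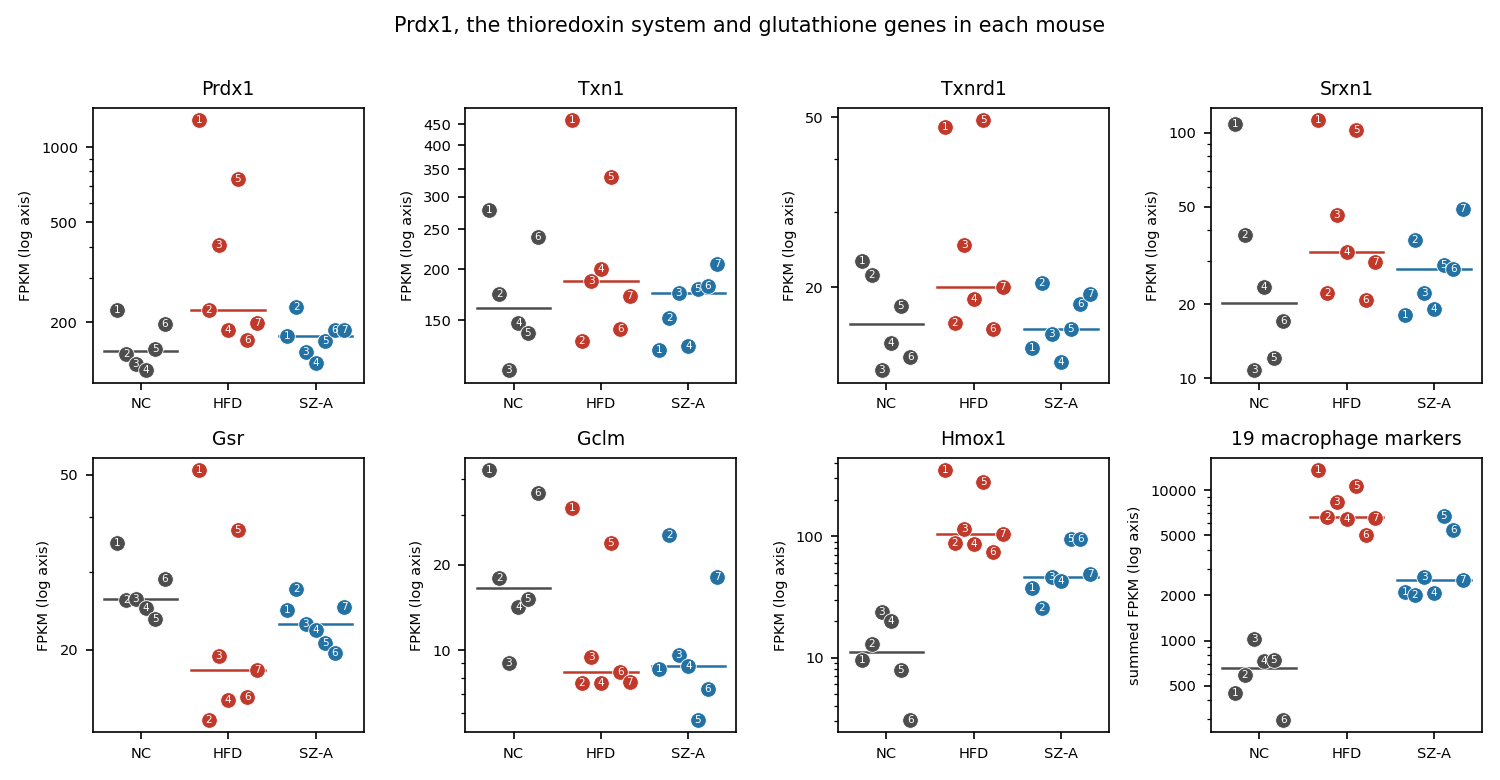
FPKM per mouse of Prdx1, Txn1, Txnrd1, Srxn1, Gsr, Gclm and Hmox1, and the summed FPKM of 19 macrophage markers, on log axes, with the replicate number in each point and a bar at the group median. HFD replicates 1 and 5 top the HFD group in each panel, with Prdx1 at 1278 and 743 FPKM against 169.9 to 404 in the other HFD mice.

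NRF2 binds the antioxidant response element, so its core TGACNNNGC, where N is any base, was sought on both strands of the RefSeq promoter windows, 250 bases before to 50 after each start (GRCm38.p6). A match was present in 10 of the 39 members with a window, 25.6%, against 14.0% of 27025 genes. They were Gsta3, Nfe2l2, Gstm5, Gstm7, Gclm, Prdx1, Mgst1, Txnrd1, Sod1 and Srxn1, the last after the start site. Gsta4, Gstt2, Prdx6, Sod3, Gclc and Gsr had no window. The matches of 3 transferases lower on the diet and of 3 genes high in HFD replicates 1 and 5 are shown, 5′ to 3′ on the strand of the gene, with the match in capitals (as its reverse complement in Gclm, Prdx1 and Txnrd1).
Gsta3, chr1:21240438-21240498, plus strand: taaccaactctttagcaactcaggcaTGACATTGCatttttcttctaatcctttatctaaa
Gstm5, chr3:107895786-107895846, plus strand: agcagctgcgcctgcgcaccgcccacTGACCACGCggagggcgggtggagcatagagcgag
Gstm7, chr3:107931709-107931769, minus strand: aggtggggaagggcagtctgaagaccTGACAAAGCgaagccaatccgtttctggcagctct
Gclm, chr3:122245397-122245457, plus strand: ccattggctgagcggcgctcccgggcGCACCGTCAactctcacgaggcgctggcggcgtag
Prdx1, chr4:116685440-116685500, plus strand: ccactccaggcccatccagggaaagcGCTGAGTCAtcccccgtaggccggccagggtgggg
Txnrd1, chr10:82859088-82859148, plus strand: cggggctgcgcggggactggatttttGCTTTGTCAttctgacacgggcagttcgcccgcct
The matches end 112, 33 and 120 bases before the start in Gsta3, Gstm5 and Gstm7, and 125, 124 and 83 bases before it in Gclm, Prdx1 and Txnrd1. Genes with a match thus included some that were lower in HFD mice and some that were highest in HFD replicates 1 and 5. Overlap with other motifs was not searched, and a match is a description of the letters, not a binding site.

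Of the remaining thioredoxin genes, Txn2 of mitochondria was lower on the diet, by a log2 fold change of -0.37 ± 0.12 (adjusted p = 0.0258), a call lost without NC replicate 1 (adjusted p = 0.0528) or 2 (0.0516), or HFD replicate 2 (0.0508) or 6 (0.0514). Txnrd2 was called in neither comparison. Of the superoxide dismutases and catalase, 1 was lower on the diet and none was called with SZ-A. Sod1, the cytosolic dismutase, lay between 85.9 and 115 FPKM in NC apart from replicate 5 at 38.4, between 36.7 and 60.8 in HFD, and between 68.0 and 99.1 in SZ-A apart from replicate 2 at 30.8. Its diet difference was -0.87 ± 0.23 (adjusted p = 0.00888), and -0.59 (adjusted p = 0.0977) without the 3 NC mice. SZ-A against HFD was 0.60 ± 0.22 (adjusted p = 0.0580), and without SZ-A replicate 2 it was called at 0.80 (adjusted p = 0.00164). Sod2, the mitochondrial dismutase, was at 9.84 to 16.9 FPKM in NC (median 13.7), 8.24 to 13.1 in HFD (median 10.2) and 7.72 to 16.4 in SZ-A (median 13.8). Its diet difference, -0.38 ± 0.14, lay just above the threshold (adjusted p = 0.05004).

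Sod3, the extracellular dismutase, was at 84.7 to 193 FPKM in NC apart from replicate 6 at 4.81, at 67.4 to 235 in HFD (median 207) and at 127 to 339.7 in SZ-A (median 227). Its diet difference of 1.09 ± 0.69 was not called (adjusted p = 0.219), and it was 0.36 (adjusted p = 0.408) without NC replicate 6. Cat, the peroxisomal catalase, lay between 31.3 and 640.5 FPKM in NC (median 340.1), between 182 and 279.9 in HFD (median 229.5), and between 124 and 409 in SZ-A (median 207). NC replicate 6 held the lowest value, and the groups overlapped (adjusted p = 0.885 and 0.951). Without NC replicates 1, 2 and 6 Cat was lower on the diet, at -1.05 (adjusted p = 0.00197). Of the enzymes of glutathione synthesis and reduction, the catalytic subunit Gclc was lower on the diet, by -0.74 ± 0.20 (adjusted p = 0.00864), a call lost without the 3 NC mice (-0.53, adjusted p = 0.0800) and with the epithelial covariate (-0.34, adjusted p = 0.504), while Gclm, Gss and Gsr were not called, and none of the 4 was called with SZ-A.

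Set against chow, the SZ-A mice differed in 1 of the 45 members, beside 4.61% of 14718 genes called in either direction, 0.455% of them lower and 4.15% higher. No member had groups that did not overlap, against 3.22% of all genes higher and 0.347% lower. That member was Gsta4, lower than in NC with -1.76 ± 0.38 (adjusted p = 0.0154). The call was lost with the epithelial covariate (-1.16, adjusted p = 0.0880), with the epididymis covariate (-1.48, adjusted p = 0.0576), and without NC replicates 1, 2 and 6 and SZ-A replicates 2 and 7 (-1.70, adjusted p = 0.116). The median of the members was -0.23. A p above the threshold does not show that the levels were alike. Prdx4, Gclc and Prdx3 came nearest among the others, with adjusted p of 0.0556, 0.0551 and 0.103. Their medians were 18.6, 9.93 and 81.6 FPKM in SZ-A and 11.5, 15.8 and 115 FPKM in NC.

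Other genes of the pathways were followed as lists. Of 33 other glutathione and thioredoxin genes in the table (45 listed), 2 were higher and 12 lower on the diet, with a median of -0.53, and 6 were higher and 3 lower with SZ-A, with a median of 0.28. These are 6.06% and 36.4% on the diet, beside 21.0% and 20.1% of all genes. With SZ-A they are 18.2% and 9.09%, beside 9.47% and 13.3% of all genes. The 2 higher on the diet were Anpep and Sesn1, and the 3 lower with SZ-A were Anpep, Sesn1 and Glrx, where Sesn1 and Glrx are named after their values were seen. Anpep, an aminopeptidase that also cleaves products of glutathione breakdown and is present on myeloid cells, lay between 0.780 and 14.1 FPKM in NC, 106 and 233 in HFD, and 29.5 and 136 in SZ-A. It differed by 4.73 ± 0.39 (adjusted p = 6.91e-07) and -1.56 ± 0.32 (adjusted p = 0.00368). Sesn2, a stress-induced sestrin, was lower on the diet, with -1.20 ± 0.27 (adjusted p = 0.00324), and higher with SZ-A, with 1.06 ± 0.25 (adjusted p = 0.00895). Slc7a11, the cystine importer that feeds glutathione synthesis, was at 0.136 to 4.18 FPKM in NC mice, 0.0809 to 0.508 in HFD mice and 0.0820 to 7.38 in SZ-A mice, and was called in neither. Txnip, an inhibitor of thioredoxin, was at 82.2 to 1162, 377 to 703 and 347 to 823 FPKM, and was not called.

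Of 35 other NRF2 pathway genes (37 listed), 14 were higher and 2 lower on the diet, with a median of 0.35, while 1 was higher and 8 were lower with SZ-A, with a median of -0.12. These are 40% and 5.71% on the diet, beside 21.0% and 20.1% of all genes. With SZ-A they are 2.86% and 22.9%, beside 9.47% and 13.3% of all genes. The 2 lower on the diet were Cbr1 and Aldh1a1, and the 1 higher with SZ-A was Cbr1, also named after its values were seen. Hmox1, which degrades heme, lay between 3.06 and 23.5 FPKM in NC (median 11.2), 74.3 and 351 in HFD (median 105), and 25.6 and 94.3 in SZ-A (median 45.9). The HFD mice were all above the NC mice, with 3.49 ± 0.46 (adjusted p = 5.70e-05), and SZ-A was lower than HFD with -1.36 ± 0.38 (adjusted p = 0.0191). Akr1b8, an aldo-keto reductase, rose on the diet by 3.92 ± 0.54 (adjusted p = 8.77e-05) and was lower with SZ-A at -1.76 ± 0.47 (adjusted p = 0.0150), with 388 FPKM in HFD replicate 1. Ftl1, the ferritin light chain, rose by 1.95 ± 0.31 (adjusted p = 0.000264), and Aldh1a1, a retinaldehyde dehydrogenase, differed by -1.99 ± 0.43 (adjusted p = 0.00252). Of the macrophage markers 18 of 19 were higher on the diet and 17 lower with SZ-A, and their part in these lists was not tested. Of the 20 adipocyte markers 1 was higher and 2 lower on the diet, and 2 were higher with SZ-A. These are 5% and 10% on the diet and 10% with SZ-A, the last near the share of all genes given above.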

How the data were processed

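Poly(A) RNA from the eWAT of 20 mice was sequenced by the authors as paired-end reads and aligned with HISAT2 to mouse GRCm38, and featureCounts 1.5.0-p3 is named in the submitters' processing notes. The authors deposited FPKM, 1 value per gene and mouse, for 14776 genes. Whether counting used strand, and how reads with several matches were treated, is not given in the sources used here. Since FPKM are not counts, the count test of the study was not used.

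log2(FPKM + 1) was fitted with limma 3.58.1 in R 4.3.3, with 2 groups per fit, an intensity trend, genes of at least 0.1 FPKM on average, and p-values adjusted after Benjamini and Hochberg over the genes of each fit. A call is an adjusted p below 0.05, two-sided, and a second count adds the study's limit of 1.5 on the log2 scale. The paper states this limit on the log2 scale in its methods, but as a fold change above 1.5 in its results text. Fold changes are on the log2(FPKM + 1) scale, which understates changes of low genes. Each ± is a standard error, with 6 NC, 7 HFD and 7 SZ-A mice. Reads recovered from FPKM and the exon lengths of GENCODE M21 were whole within 0.01 reads for 95.9% to 96.3% of values under 1000 reads per mouse, and were used for an alternative with voom. The fits were tested on simulated data with the same spread in both groups, so unequal spread was not tested. Of 200 genes changed by 1 on the log2 scale, 127 were called in HFD against NC. In SZ-A against HFD 163 were called, and in SZ-A against NC 99, so changes of that size were often missed. The tables were handled in Python 3.11.15 with pandas 2.3.3, NumPy 2.4.6 and matplotlib 3.10.9.

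Groups came from the labels. The members, the pathway and marker lists and the tests were chosen with earlier results of these data known. Ranges and medians are given for the 6 members of largest difference in HFD against NC and in SZ-A against HFD, the 5 of highest mean level, each Gstm gene, and Gpx3, Gpx4, Cat, Sod2, Sod3, Nqo1, Nfe2l2 and Keap1. Those of Gsta3, Gstt2, Prdx1, Prdx3, Prdx4 and Sod1 are outside this rule and were added after their values were seen. Of the pathway lists, the 5 genes of largest called difference in either comparison are named, with Hmox1, Slc7a11, Txnip and Selenop. Fits without mice of high epithelial markers (over 300 FPKM) and without HFD replicates 1 and 5 were chosen after seeing the data. The alternatives were another pseudocount, filters, scaling, quality weights, all 3 groups, marker covariates, a replicate block, summed Gstm genes and each mouse left out. No 2 libraries were identical, and no value column was left unused. P-values measure the spread between these mice. Promoter sequences came from RefSeq (GRCm38.p6), with 39 of 45 members matched.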

Additional observations from a re-analysis of the deposited data

Results flagged for a closer look

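Of 135 sets of values, 1 per member and group, 10 had a lowest or highest mouse farther from the rest than Dixon's 95% limit, and chance gives about 1 in 20. NC replicate 6 was the mouse in 5 of the 10. Its adipocyte markers summed to 701 FPKM. It was lowest for Gsto1 at 4.64 FPKM (22.4 to 41.2 in the other NC mice), Gstt1 at 5.97 (29.5 to 50.8), Mgst3 at 8.57 (79.8 to 239), Txnrd2 at 1.36 (3.76 to 4.76) and Sod3 at 4.81 (84.7 to 193). Gsta4 was lowest in NC replicate 3 at 11.9 FPKM (26.8 to 36.4). Sod1 was lowest in NC replicate 5 at 38.4 FPKM (85.9 to 115) and in SZ-A replicate 2 at 30.8 (68.0 to 99.1). Prdx4 was highest in HFD replicate 1 at 32.5 FPKM (19.6 to 23.0 in the other HFD mice). Nfe2l2 was highest in SZ-A replicate 6 at 40.3 FPKM (25.3 to 30.4).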

How the results depend on the processing

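Over 61 fold changes of single genes and their alternatives, 1475 of 1661 values kept their direction and their side of the threshold, 127 lost a call, 43 gained one and 16 changed sign. In HFD against NC the members called higher were 4 when SZ-A mice also entered (all 3 groups), 1 with the epididymis covariate, 0 with the epithelial covariate and 0 past the fold limit. The members called lower were 7 with the epithelial covariate and 9 past the fold limit. Calls over all genes were 40.8% with all 3 groups, 24.1% with the epididymis covariate and 21.1% with the epithelial covariate, against 41.1% in the main fit. Their median was -0.85 with the epididymis and -0.13 with the epithelial covariate. Leaving out 1 mouse gave 2 to 4 higher (4 without NC replicate 4), 18 to 24 lower and a median of -0.62 to -0.32.

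In SZ-A against HFD the members called higher were 4 with all 3 groups (14.2% of all genes called in either direction), 27 with quality weights (43.6%, against 22.8% without), 3 with the epididymis covariate, 5 with the epithelial covariate, 1 without HFD replicates 1 and 5, and 1 past the fold limit. Those called lower were 1 with quantile normalization, all 3 groups, voom, the epithelial covariate, the replicate block or without SZ-A replicates 2 and 7, and 0 with the epididymis covariate, without HFD replicates 1 and 5 or past the fold limit. Calls over all genes were 19.2% with the epididymis covariate, 19.8% with the epithelial covariate, 22.3% with quantile normalization and 22.8% with voom. They were 17.8% with the replicate block, 25.9% without SZ-A replicates 2 and 7, 9.62% without HFD replicates 1 and 5, and 0.864% past the fold limit. The median of the members was 0.20 with the epithelial covariate. Without 1 mouse, 6 to 19 were higher (19 without SZ-A replicate 5), 1 to 2 lower, and the median was 0.34 to 0.53.

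In SZ-A against NC the members called lower were 2 with quantile normalization, 4 with all 3 groups, 7 with quality weights, and 0 with either covariate, the replicate block or without the mice of high epithelial markers. Those called higher were 1 with all 3 groups and 5 with quality weights. Calls over all genes were 17.9% with quality weights and 10.4% with all 3 groups, against 4.61% in the main fit. They were 4.26% with quantile normalization, 2.73% with the epididymis and 1.9% with the epithelial covariate. With the replicate block they were 1.13%, and without the mice of high epithelial markers 1.22%. The median of the members was 0.0495 with the epithelial covariate. Without 1 mouse, 0 to 1 were higher, 1 to 2 lower, and the median was -0.25 to -0.12. The cause of these changes was not tested.

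Sign changes in HFD against NC were, with the epithelial covariate, Gpx1 (-1.37), Gstm1 (0.19), Gstm2 (0.18), Gstm6 (0.85), Gstm7 (1.08), Prdx6 (0.32), Sod2 (0.0399), Sod3 (-1.20), Aldh1a1 (0.14) and Selenop (-0.11), with the epididymis covariate, Gpx1 (-0.85) and Sod3 (-1.38), and without NC replicates 1, 2 and 6, Gpx1 (-0.23). In SZ-A against HFD, Nqo1 was -0.29 and -0.32 with the covariates and -0.0833 without SZ-A replicates 2 and 7. Voom shifted the median of all genes by -0.11 in HFD against NC.

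Whether replicate numbers pair the mice was not settled, since correlations of differently numbered mice were not set beside those of same-numbered ones. Same-numbered mice had correlations of their deviations from -0.28 to 0.30 in HFD against NC, from -0.39 to 0.37 in SZ-A against HFD and from -0.41 to 0.58 in SZ-A against NC. With the replicate block 2 members were higher and 18 lower in HFD against NC, and 8 higher and 1 lower in SZ-A against HFD. Of all genes 30.1% and 17.8% were called in these fits. Shared sequence limits Gstp1 and Gpx4, and an overlapping gene model Gstt3. The epididymis covariate rests on 1 of 37 markers. Neither the epididymis marker nor the epithelial sum overlapped between NC and HFD mice. The covariate fits of HFD against NC, with their lost calls and sign changes, therefore cannot separate the diet from these marker levels. Between HFD and SZ-A mice the epididymis marker did not overlap either, at 0.789 to 1.75 and 1.80 to 103 FPKM. Of the SZ-A epithelial sums only that of replicate 6, at 6.69 FPKM, lay inside the HFD range of 4.58 to 8.30. The covariate fits of SZ-A against HFD, with the sign changes of Nqo1, therefore separate SZ-A poorly or not at all from these marker levels. No member was under 12 reads in any mouse.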

Other observations

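Gpx1, Gpx3, Gpx4 and the thioredoxin reductases contain selenocysteine, and 20 genes of other selenoproteins, selenoprotein synthesis and selenium binding were followed as a list, each in the table. On the diet 4 were higher and 4 lower, with a median of -0.05, and with SZ-A 3 were higher and 3 lower, with a median of 0.01. These shares, 20% and 15% each way, lie near those of all genes, 21.0% higher and 20.1% lower on the diet and 9.47% and 13.3% with SZ-A. Selenop, the secreted selenium carrier, lay between 43.1 and 571 FPKM in NC (median 341), between 815 and 1383 in HFD (median 851), and between 189 and 622 in SZ-A (median 482). Each HFD mouse was above each NC mouse and each SZ-A mouse. It was higher on the diet by a log2 fold change of 1.94 ± 0.49 (limma, adjusted p = 0.00657) and lower with SZ-A, with -1.19 ± 0.25 (adjusted p = 0.00467), and both comparisons use the same HFD mice. With the epithelial covariate the diet value was -0.11 (adjusted p = 0.922).

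Of the other cell type markers, 9 of 12 fibroblast and progenitor markers were higher and 1 lower on the diet, and 10 were lower with SZ-A. Of 10 endothelial markers none was called on the diet (limma) and 2 were higher with SZ-A. Of 10 mesothelial markers 4 were in the table, with 2 lower on the diet and 1 higher with SZ-A. Each of the 7 epithelial markers was lower on the diet, and 2 were higher with SZ-A. The 1 epididymis marker, Adgrg2, was lower on the diet and higher with SZ-A. Beside these counts, 21.0% of all genes were higher and 20.1% lower on the diet, and 9.47% and 13.3% with SZ-A.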
